A study of Mus musculus with 28 samples.

Results

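The voltage-gated potassium (Kv) channel subunit genes Kcna1, Kcna2, Kcna4, Kcnb2, Kcnc4, Kcnd3, Kcns1, Kcns3 and Kcnab1 were followed through RNA-seq of purified mouse sensory neurons. These 9 genes were taken by symbol from the 45952 genes listed in each of the deposited tables. They comprise 6 pore-forming subunits, 2 electrically silent subunits and 1 auxiliary beta subunit. Neurons were isolated 8 days after partial sciatic nerve ligation (SNL) by magnetically activated cell sorting (MACS) from C57BL/6J mice in 3 male and 3 female libraries, or by fluorescence-activated cell sorting (FACS) from naïve mice in 11 male and 11 female libraries. The SNL mice were aged between 6 weeks and 7 months and their estrus stage was identified. The naïve mice were aged 3 to 6 months, and the estrus stage of the females was not identified. In both experiments 2 mice of one sex were pooled into a library. All naïve mice carried the Avil-EGFP transgene, which places GFP under the regulatory sequences of advillin, a gene of sensory neurons, and GFP-positive cells were collected. The study asked whether the neurons of male and female mice differ in their transcripts, in each state separately.

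A Kv channel is built from pore-forming alpha subunits that assemble around a central pore, open when the membrane depolarizes and let potassium leave the cell, which ends the action potential and limits repetitive firing. In sensory neurons, Kcna1 and Kcna2 encode the Shaker-type subunits that cluster beside the nodes of Ranvier of myelinated axons, and Kcna4 encodes a Shaker-type subunit that inactivates rapidly and is found in small nociceptors. Kcnb2 encodes a delayed rectifier of the Shab family, Kcnc4 a rapidly inactivating high-threshold channel of the Shaw family, and Kcnd3 an A-type channel of the Shal family. The proteins of Kcns1 and Kcns3 do not conduct on their own and change the properties of Shab-type channels with which they assemble. The Kcnab1 protein is a cytoplasmic beta subunit that binds Shaker-type channels and speeds their inactivation.

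The part of the coding sequence that makes these genes potassium channels is shown for 5 of the subunits described below, since it also shows how far sequencing reads can separate them. The stretches are 75 bases long, the length of one read, and are taken from GENCODE vM21 transcripts (GRCm38). The capitals mark the codons for glycine, tyrosine and glycine of the selectivity filter, the narrow part of the pore that admits potassium.
Kcna1: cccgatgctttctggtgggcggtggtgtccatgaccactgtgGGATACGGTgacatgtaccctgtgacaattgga
Kcna2: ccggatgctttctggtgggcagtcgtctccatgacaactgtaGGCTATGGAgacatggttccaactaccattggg
Kcnb2: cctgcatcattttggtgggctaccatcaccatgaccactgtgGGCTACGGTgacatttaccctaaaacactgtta
Kcns1: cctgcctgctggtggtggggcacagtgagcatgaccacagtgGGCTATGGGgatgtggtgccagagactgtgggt
Kcns3: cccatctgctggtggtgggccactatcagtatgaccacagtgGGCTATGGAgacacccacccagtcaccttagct

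All 8 alpha subunits, the silent pair included, held such a filter 1 time in their coding sequence, and Kcnab1 held 0. Kcna1 and Kcna2 differed at 18 of the 75 bases, and Kcns1 and Kcns3 at 22. Over whole transcripts, 0 of the 75-base windows of any member occurred in another member. Windows shared with any other annotated gene were 0% for 6 members, 0.949% for Kcnd3, 0.233% for Kcnab1 and 0.0338% for Kcna2. For Kcnd3 and Kcnab1 the shared windows lay on the opposite strand, in the antisense genes Kcnd3os and A330015K06Rik, both of which were listed at 0 FPKM in all 28 libraries. The coding lengths ran from 1203 bases for Kcnab1 to 2721 bases for Kcnb2.

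In the mm10 coordinates of the deposited tables, 4 members lie on chromosome 3: Kcnab1 at chr3:65109384-65378223, Kcnd3 at chr3:105452330-105674002, Kcna2 at chr3:107101146-107115005 and Kcnc4 at chr3:107438303-107459552. Kcna4 at chr2:107290639-107298502 and Kcns1 at chr2:164163619-164171113 share chromosome 2. Kcna1 lies at chr6:126636463-126645801, Kcnb2 at chr1:15287254-15723750 and Kcns3 at chr12:11090202-11150842. All 9 are annotated as protein-coding.

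Sequencing gave 30544219 to 50649730 reads in SNL libraries and 24800048 to 40035653 reads in naïve libraries. Levels are FPKM, read fragments scaled to the length of the transcript and to the depth of the library. The Y-linked Eif2s3y was at 8.81 to 21.3 FPKM in SNL males and at 0 in SNL females, and at 14.1 to 39.1 FPKM in naïve males and at most 0.282 in naïve females, as the labels have it. The pan-neuronal genes Stmn2 and Uchl1 averaged 2000 and 1910 FPKM in SNL libraries and 1874 and 1747 FPKM in naïve libraries. Markers of satellite glia, named in the labels as a contaminant of the naïve sort, summed to 108 to 153 FPKM in SNL libraries and to 1655 to 7139 FPKM in naïve libraries. Their defining genes Fabp7 and Apoe averaged 1.64 and 1.66 FPKM in SNL libraries and 600 and 2876 FPKM in naïve libraries. S100b and Glul made up most of the SNL sum, with S100b at 74.5 FPKM in SNL libraries and 377 FPKM in naïve libraries, and Glul, the one gene of the 10 that was higher after SNL, at 55.3 and 32.0 FPKM. Erythroid genes summed to 561 to 18896 FPKM in SNL libraries and to 0.369 to 71.6 FPKM in naïve libraries. Trunk Hox genes, summing to 92 FPKM or more in the other 18 naïve libraries, were near 0 (at most 0.783 FPKM) in naïve males 2 and 10 and naïve females 2 and 11. The study dissected trigeminal ganglia for 2 replicates and lumbar dorsal root ganglia (DRG) for 9, numbers that match the 11 libraries of each sex. The labels name DRG neurons throughout and do not mark the trigeminal libraries. The sex comparison is therefore also given without these 4 libraries.

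Kcnab1 was by far the most abundant member in both experiments, with a mean of 124 ± 29.5 FPKM in SNL libraries (SD, n = 6) and 74.8 ± 33.6 FPKM in naïve libraries (SD, n = 22). It was above every other member in 6 of 6 SNL libraries and above the next member by mean, Kcns3, in 22 of 22 naïve libraries. It was not above every other member in all naïve libraries. In naïve male 11, the library where Kcnab1 was lowest, Kcna1 lay above Kcnab1. In naïve libraries the members then followed in the order Kcns3 with 14.0 ± 6.58 FPKM, Kcna1 with 12.8 ± 7.65, Kcnb2 with 7.21 ± 2.16, Kcna2 with 6.44 ± 2.47, Kcnc4 with 5.62 ± 3.04, Kcnd3 with 4.60 ± 2.49, Kcna4 with 3.71 ± 1.52 and Kcns1 with 2.35 ± 1.59. Only the step from Kcnab1 to Kcns3 held among the 8 neighbouring pairs (mean difference 2.30 on the log2(FPKM + 1) scale, sign-flip permutation test over libraries, two-sided, p = 1e-05, the smallest that the resamples can give, and adjusted p = 8e-05). The other 7 neighbours did not differ beyond their spread between libraries, with adjusted p from 0.0632 to 0.312.

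In SNL libraries Kcnb2 with 12.3 ± 2.45 FPKM was second, before Kcns3 with 9.48 ± 3.67, Kcnd3 with 9.36 ± 1.62, Kcnc4 with 6.44 ± 2.33, Kcna4 with 6.14 ± 2.06, Kcna1 with 5.22 ± 1.37, Kcna2 with 4.56 ± 0.794 and Kcns1 with 1.46 ± 0.645. With 6 libraries the exact sign-flip test cannot go below p = 0.031 and, adjusted over 8 pairs, 0 neighbours passed 0.05. Kcnab1 was above Kcnb2 and Kcna2 above Kcns1 in 6 of 6 libraries (exact test, adjusted p = 0.125 each).

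The depth behind these values differed between members. The authors' mean normalized count per library, from their separate read counting, was 10048 for Kcnab1 and 109 for Kcns1 in the SNL experiment, and 2657 for Kcnab1 and 57.3 for Kcns1 in the naïve experiment. The level of Kcns1 therefore rests on the fewest reads. Its highest naïve value was 72.1 times its lowest, against 3.23 times for Kcnb2 and 20.8 times for Kcna1, which had a mean count of 1304. Whether depth accounts for these spreads was not tested.

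**Figure D1:**
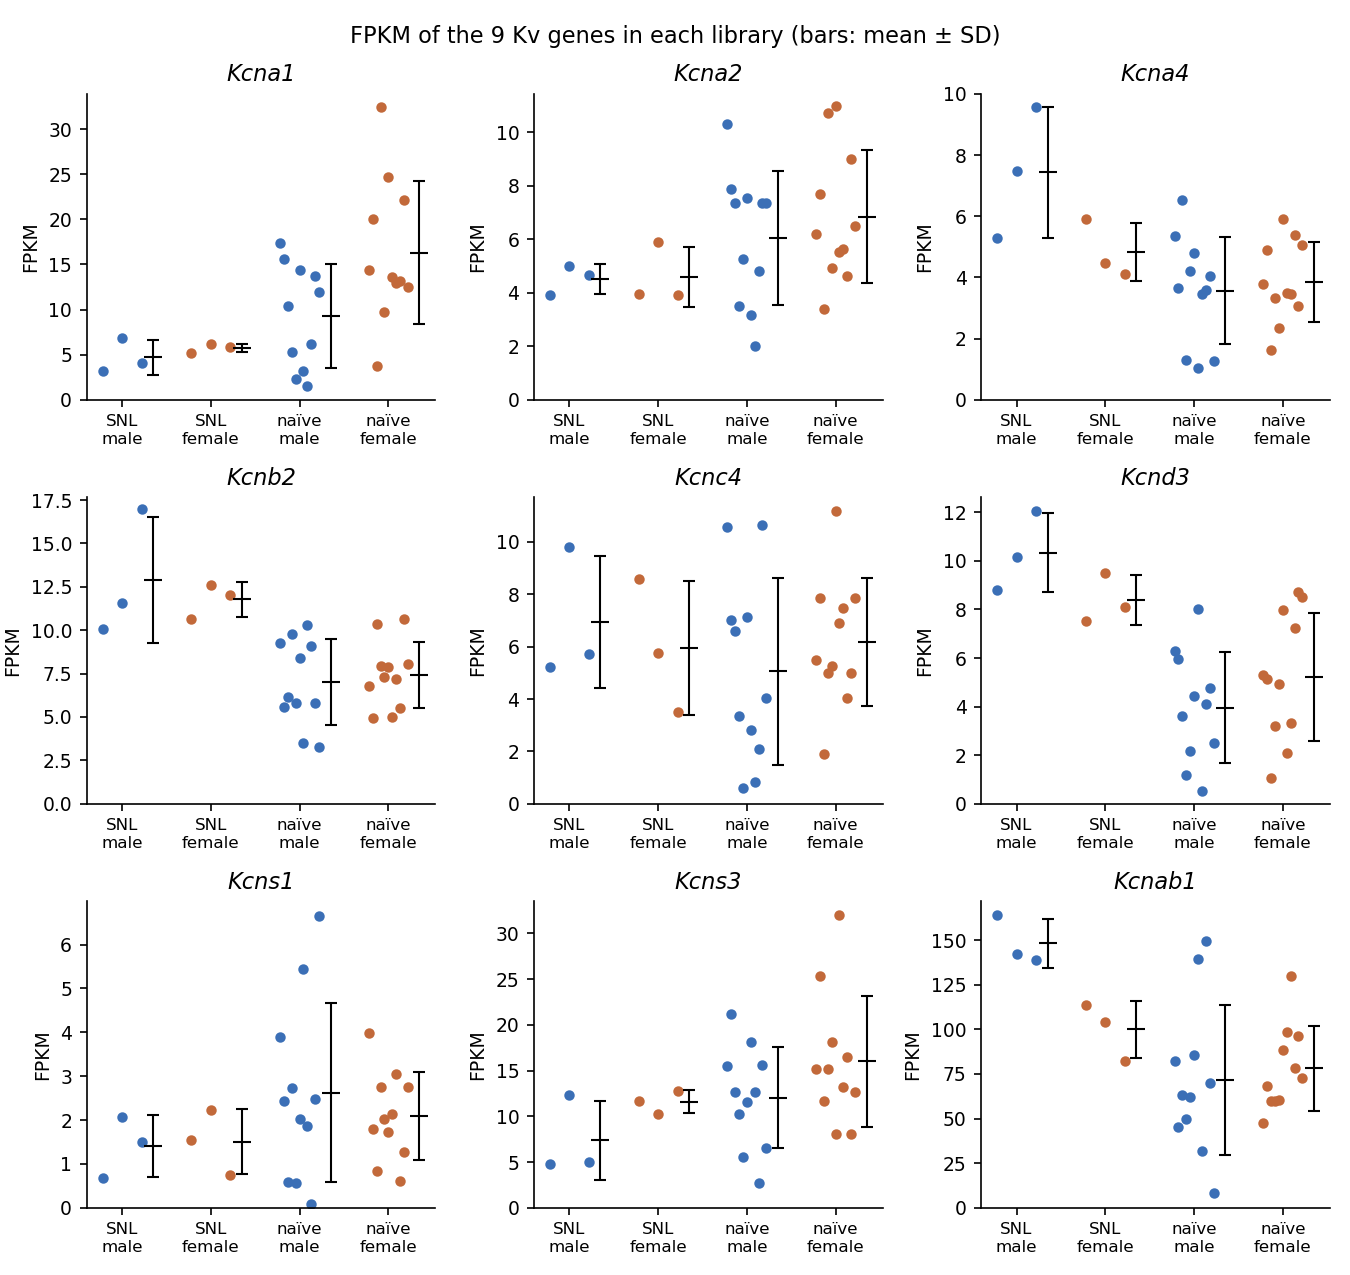
FPKM (y axis) of each of the 9 Kv genes in every library, by experiment and sex (x axis), with points for libraries and bars for the mean ± SD. Naïve Kcna1 spans 1.56 to 32.4 FPKM, and Kcnab1 in SNL males, at 139 to 164 FPKM, lies above SNL females at 82.4 to 114 FPKM.

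Male and female neurons were compared by limma on log2(FPKM + 1) across all genes that passed the expression filter, with Benjamini-Hochberg adjustment. All 9 members passed the filter in both experiments. After SNL, 0 of 9 members passed an adjusted p of 0.05, where 0.0442% of the 11303 genes tested did. In naïve neurons 0 of 9 members passed, where 0.0543% of the 12893 genes tested did. At an unadjusted p under 0.05, 1 member, Kcnab1, was among the 1.11% of genes higher in SNL males and 0 were among the 2.57% lower in SNL males. In naïve neurons 1 member, Kcna1, was among the 5.90% of genes lower in males and 0 were among the 2.39% higher in males.

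Kcnab1 in SNL neurons had 164, 142 and 139 FPKM in males 1 to 3, against 114, 104 and 82.4 FPKM in females 1 to 3. Every male library lay above every female library. Of all genes tested, 3.58% were placed in this way and 4.68% the opposite way, against 1 and 0 of the 9 members. The mean was 148 ± 13.6 FPKM in males and 100.1 ± 15.97 FPKM in females (SD, n = 3 each). The log2 difference was 0.57 (95% interval 0.12 to 1.02, limma p = 0.0186, adjusted p = 0.945). Leaving out each library in turn gave 0.44 to 0.67, and the unadjusted p was 0.0611 without male 1 and 0.0810 without female 3. The summed erythroid genes overlapped between the sexes, at 1620 to 18896 FPKM in males and 561 to 9227 FPKM in females. The mean log2(FPKM + 1) of large-diameter neuron genes did not overlap, at 2.17 to 2.52 in SNL males and 2.66 to 3.04 in SNL females, and its part in the SNL sex differences was not tested. In naïve neurons Kcnab1 did not show this placement. Males had 8.35 FPKM at the lowest, 63.3 at the median and 150 at the highest, and females 47.5, 72.9 and 130. The naïve log2 difference was -0.36 (95% interval -1.03 to 0.31, adjusted p = 0.734), and -0.09 without male 11, the library with the lowest value. It was -0.51 with the level of large-diameter neuron genes as a covariate (limma p = 0.142). Without the 6 naïve libraries lowest in these genes it was -0.66 (limma p = 0.0885). Whether the sex difference of Kcnab1 differs between the experiments was not tested.

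Kcna1 in naïve neurons had a mean of 9.27 ± 5.76 FPKM in males and 16.3 ± 7.91 FPKM in females (SD, n = 11 each). Males had 1.56 FPKM at the lowest, 10.4 at the median and 17.4 at the highest, and females 3.78, 13.6 and 32.4. The ranges overlapped, and 5 males, replicates 4, 5, 7, 8 and 9, and 1 female, replicate 3, lay under 7 FPKM. The log2 difference was -0.87 (95% interval -1.60 to -0.15, limma p = 0.0199, adjusted p = 0.595). It was -1.04 without the 4 libraries near 0 for trunk Hox (adjusted p = 0.745). The unadjusted call was lost with array quality weights (-0.50, limma p = 0.115) and with the level of satellite glial genes as a covariate (-0.61, limma p = 0.0744). It was also lost with RNA integrity as a covariate, a fit without male 8 (-0.71, limma p = 0.0741). Leaving out male 8 alone, with no covariate, gave -0.70 (limma p = 0.0437). The 6 libraries lowest in Kcna1 also had the lowest mean level of large-diameter neuron genes, described below, and with that level as a covariate the difference was -0.33 (p = 0.0661, adjusted p = 0.584). After SNL, Kcna1 was at 3.21, 6.86 and 4.04 FPKM in males and 5.22, 6.15 and 5.83 FPKM in females, with overlapping ranges and a log2 difference of -0.29 (95% interval -1.01 to 0.43).

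Of the other Shaker-type genes, Kcna2 was at 3.90, 4.995 and 4.68 FPKM in SNL males and 3.97, 5.89 and 3.94 FPKM in SNL females, a log2 difference of -0.01 (95% interval -0.66 to 0.65). Naïve Kcna2 averaged 6.05 ± 2.495 FPKM in males and 6.84 ± 2.49 FPKM in females, a difference of -0.19 (95% interval -0.64 to 0.27). The sexes overlapped in both experiments. Kcna4 was at 5.28, 7.47 and 9.57 FPKM in SNL males and 5.92, 4.49 and 4.10 FPKM in SNL females, where the highest female lay above the lowest male (0.51, 95% interval -0.18 to 1.21). Naïve Kcna4 averaged 3.57 ± 1.76 FPKM in males and 3.85 ± 1.32 FPKM in females, a difference of -0.15 (95% interval -0.62 to 0.32).

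Kcnb2, the Shab-type delayed rectifier, was at 10.1, 11.6 and 17.0 FPKM in SNL males and 10.7, 12.6 and 12.04 FPKM in SNL females, a log2 difference of 0.09 (95% interval -0.52 to 0.70). Its naïve levels were the least variable of the members, at 7.001 ± 2.48 FPKM in males and 7.42 ± 1.89 FPKM in females, a difference of -0.11 (95% interval -0.49 to 0.27). Kcnc4, of the Shaw family, averaged 6.93 ± 2.52 FPKM in SNL males and 5.95 ± 2.56 FPKM in SNL females (0.21, 95% interval -0.63 to 1.06), and 5.06 ± 3.58 FPKM in naïve males and 6.18 ± 2.44 FPKM in naïve females (-0.44, 95% interval -1.10 to 0.23). The naïve difference of Kcnc4 was -0.0093 with the large-diameter level as a covariate and -0.18 with array quality weights. Kcnd3, the A-type subunit, was at 8.82, 10.2 and 12.04 FPKM in SNL males and 7.51, 9.51 and 8.12 FPKM in SNL females (0.27, 95% interval -0.31 to 0.85). In naïve neurons it averaged 3.96 ± 2.28 FPKM in males and 5.23 ± 2.64 FPKM in females (-0.35, 95% interval -0.98 to 0.28). In each of these 3 genes the sexes overlapped in both experiments.

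The silent subunits overlapped between the sexes as well. Kcns3 was at 4.78, 12.3 and 4.96 FPKM in SNL males and 11.7, 10.3 and 12.8 FPKM in SNL females, so that 2 males lay below all females and male 2 among them. The log2 difference was -0.70 (95% interval -1.53 to 0.12, adjusted p = 0.945), and -1.10 without male 2 (limma p = 0.00621, adjusted p = 0.379), so that this library decided the unadjusted call. Naïve Kcns3 averaged 12.1 ± 5.56 FPKM in males and 16.01 ± 7.17 FPKM in females, a difference of -0.43 (95% interval -0.99 to 0.13). With RNA integrity as a covariate, a fit without male 8, whose integrity number is missing, it was -0.81 (limma p = 0.00851, adjusted p = 0.779), and without the 6 libraries lowest in large-diameter genes it was -0.20. Kcns1 averaged 1.41 ± 0.702 FPKM in SNL males and 1.51 ± 0.734 FPKM in SNL females (-0.06, 95% interval -0.91 to 0.79), and 2.62 ± 2.04 FPKM in naïve males and 2.09 ± 1.00 FPKM in naïve females (0.08, 95% interval -0.52 to 0.67).

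Taking the members as a list, 5 of 9 log2 differences were above 0 after SNL, and 4 to 7 of 9 under the alternatives that kept all members, with a median of 0.09, beside 4585 of 11303 genes and a median of -0.08 over all genes tested. In naïve neurons 8 of 9 were below 0, and 5 to 9 of 9 under the alternatives that kept all members (6 with array quality weights and 5 without the 6 libraries lowest in large-diameter genes), with a median of -0.35, beside 7867 of 12893 genes and a median of -0.07.

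**Figure D2:**
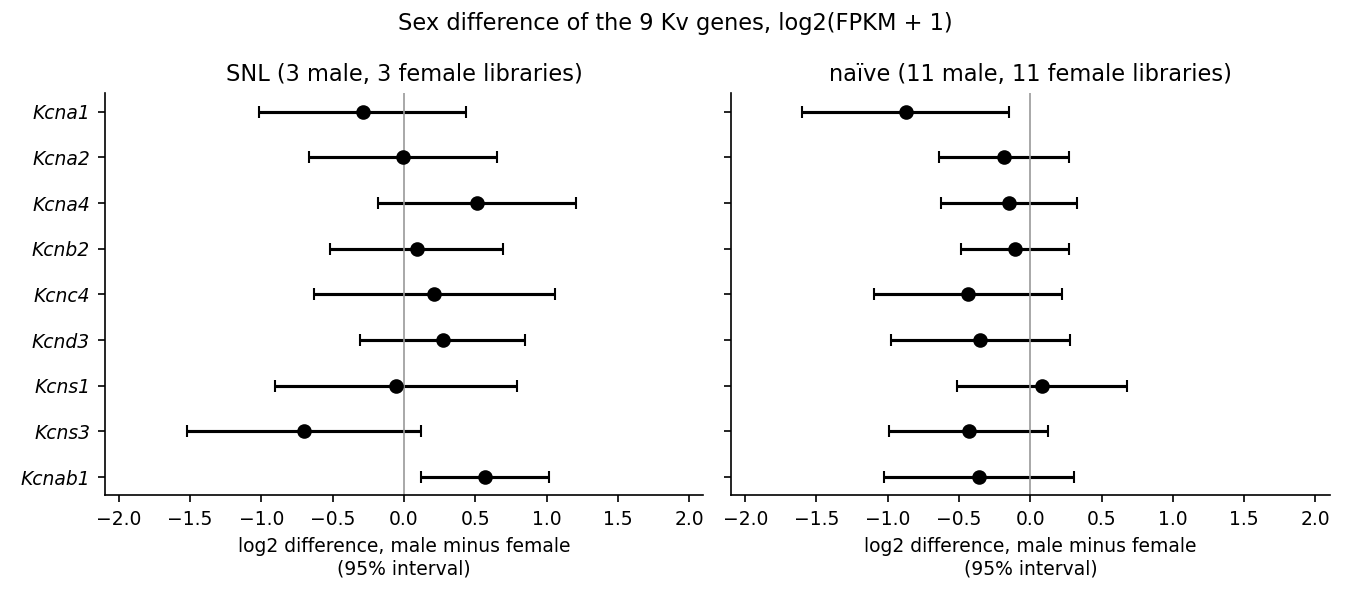
Log2 difference, male minus female, of log2(FPKM + 1) for the 9 Kv genes (x axis) with its 95% interval, in SNL libraries (left panel, 3 males and 3 females) and naïve libraries (right panel, 11 males and 11 females). The interval excludes 0 for Kcnab1 after SNL (0.57) and for Kcna1 in naïve neurons (-0.87) and spans 0 for the rest in the fits without covariates, and 0 members pass after adjustment.

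The wider Kv family gave the same counts. After SNL, 0 of the 11 pore-forming, 5 silent and 8 auxiliary genes tested passed an adjusted p of 0.05 between the sexes, and in naïve neurons 0 of 12, 6 and 9 did, members included. At an unadjusted p under 0.05 these were, beside the members Kcnab1 and Kcna1, 0 further genes after SNL and 1 in naïve neurons, the silent subunit Kcng4. Kcnd1, an A-type subunit, was the most abundant pore-forming gene with 107 ± 29.7 FPKM in SNL libraries and 73.3 ± 23.1 FPKM in naïve libraries. Kcna6, another Shaker-type subunit, averaged 29.6 FPKM in SNL libraries and 24.9 FPKM in naïve libraries. Among silent subunits, Kcnv1 averaged 7.36 FPKM in SNL libraries and 17.8 FPKM in naïve libraries, Kcng2 2.19 and 1.24 FPKM, and Kcnf1 1.11 and 4.76 FPKM. The most abundant auxiliary genes were Kcnip2 with 328 and 397 FPKM and Kcnip4 with 227.6 and 152 FPKM, which encode calcium-binding partners of A-type channels, and the beta subunit Kcnab2 with 160 and 140 FPKM, in SNL and in naïve libraries. Kcnab1 averaged less than Kcnab2 over all libraries of each experiment, but in SNL males alone the means were 148 FPKM for Kcnab1 and 145 FPKM for Kcnab2.

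Of the genes for proteins that hold Shaker-type channels beside the node, 0 of 9 tested after SNL and 0 of 10 tested in naïve neurons passed between the sexes. At an unadjusted p under 0.05 there were 0 after SNL and 1 in naïve neurons, Cntn2. The most abundant after SNL were Adam22 with 27.1 FPKM, the cell adhesion gene Cntn2 with 21.9 FPKM and Lgi1 with 16.3 FPKM. In naïve libraries they were Adam23 with 18.8 FPKM, Adam22 with 17.7 FPKM and Cntnap2, the neurexin-related partner of Cntn2, with 15.8 FPKM.

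Across the 22 naïve libraries, Kcna1 and Kcna2 varied together. Spearman's rho was 0.88 and Pearson's r 0.88 on log2(FPKM + 1) (permutation p = 1e-05 for each, adjusted over 36 member pairs p = 0.00036 and 0.00018). The value of r was 0.90 without the 2 libraries farthest from the median of Kcna1, and 0.90 within males and 0.93 within females. Kcnc4 followed both: rho was 0.71 and r 0.84 with Kcna1 (adjusted permutation p = 0.00432 and 0.00018), and rho was 0.68 and r 0.73 with Kcna2 (adjusted permutation p = 0.00924 and 0.00168). Without the 2 farthest libraries r was 0.71 and 0.62. These 3 pairs of 36 had an adjusted p of rho under 0.05. By r, 6 pairs did, the additional ones being those of Kcnd3 with Kcna1, Kcna2 and Kcnc4. Kcna4, the third Shaker-type subunit, had rho of 0.37 with Kcna1 and 0.41 with Kcna2 (adjusted permutation p = 0.265 and 0.222).

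**Figure D3:**
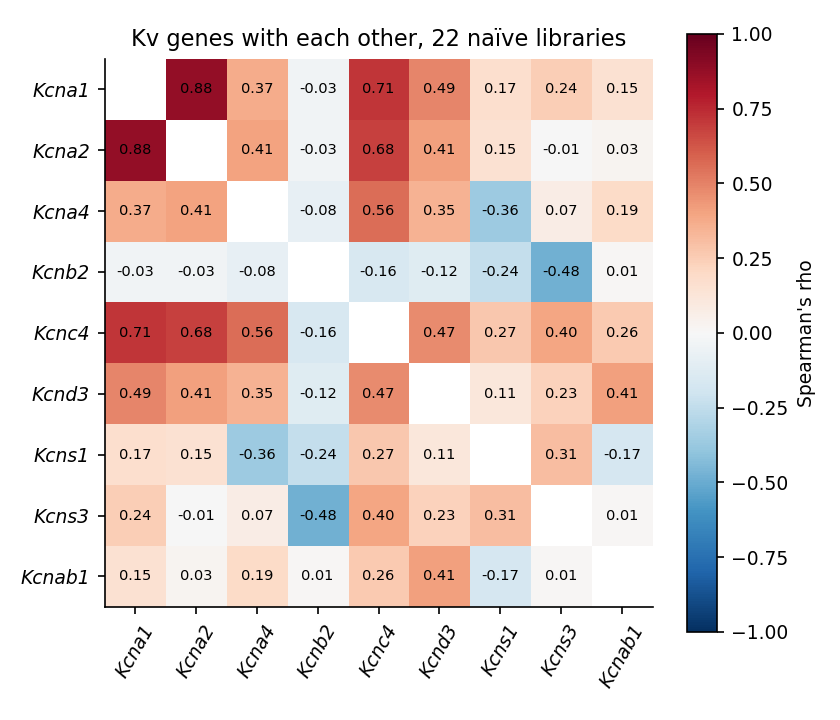
Spearman's rho of log2(FPKM + 1) between each pair of the 9 Kv genes (rows and columns) over the 22 naïve libraries, from -1 in blue to 1 in red. Kcna1, Kcna2 and Kcnc4 form the block of high values (0.68 to 0.88), and the lowest value is that of Kcnb2 with Kcns3 (-0.48).

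The 3 genes also tracked the level of genes that mark large-diameter, mostly myelinated sensory neurons. This level was the mean log2(FPKM + 1) of Nefh, Pvalb, Ntrk3 and 5 more listed genes whose FPKM averaged 1 or above. Nefh, the heavy neurofilament, averaged 124 ± 67.5 FPKM and the calcium buffer Pvalb 45.7 ± 92.1 FPKM in naïve libraries. With the list, Spearman's rho was 0.86 for Kcna1, 0.86 for Kcna2 and 0.68 for Kcnc4 (adjusted permutation p = 0.00018, 0.00018 and 0.00852 over 36 relations of members with 3 marker lists and RNA integrity), and r was 0.92, 0.82 and 0.82. Without the 2 farthest libraries r was 0.90, 0.87 and 0.78. Within males r was 0.92, 0.81 and 0.81, and within females 0.94, 0.87 and 0.77. For the other 6 members rho ran from -0.22 for Kcnb2 to 0.35 for Kcns1, and none passed. With the genes of small-diameter neurons, such as Calca and Tac1, rho was -0.62 for Kcna2 (adjusted permutation p = 0.0261) and did not pass for the other members, and by r (-0.50 for Kcna2, adjusted permutation p = 0.0984) 0 of 9 members passed. No member passed with satellite glial genes or with the RNA integrity number.

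The list mean lay between 1.42 and 2.42 in 6 libraries, males 4, 5, 7, 8 and 9 and female 3, and between 3.00 and 4.70 in the other 16. Over those 16, a division made after the values were seen, r with the list was 0.65 for Kcna1 (permutation p = 0.00668) and 0.65 for Kcna2 (permutation p = 0.00658), and 0.25 for Kcnc4 (permutation p = 0.356). Between Kcna1 and Kcna2 it was 0.77 (permutation p = 0.00042), between Kcna1 and Kcnc4 0.15 (permutation p = 0.575), and between Kcna2 and Kcnc4 0.40 (permutation p = 0.121). The 6 libraries left out were also the lowest in Kcna1, which narrows its range. None of the 3 relations of Kcnc4 had a p under 0.05 without them, whereas Kcna1 and Kcna2 still varied together. Over the 16 libraries 0 of the 36 relations with marker lists and RNA integrity had an adjusted p of rho under 0.05. Fewer large-diameter neurons in a library and less RNA of these genes per neuron cannot be told apart in pooled cells. Without these 6 libraries the male minus female log2 difference of Kcna1 was -0.25 (limma p = 0.282, adjusted p = 0.679). The part of this variation in the sex difference of Kcna1 was not tested beyond this fit and the covariate fit given above.

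**Figure D4:**
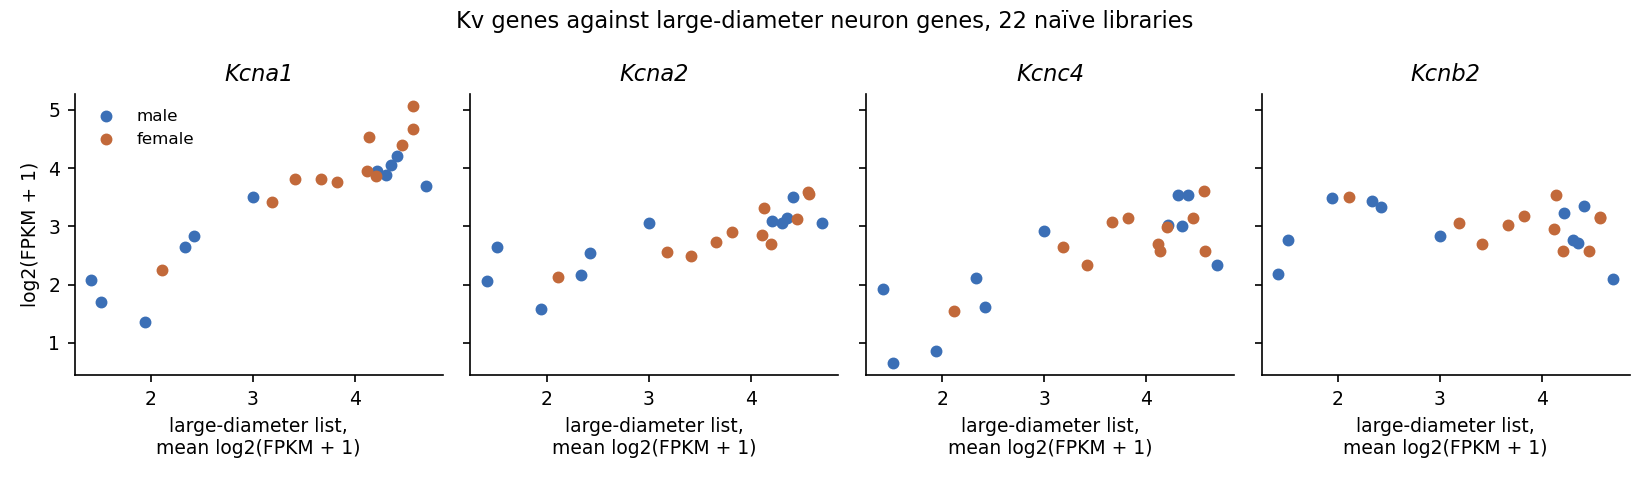
Log2(FPKM + 1) of Kcna1, Kcna2, Kcnc4 and Kcnb2 (y axis, one panel each) against the mean log2(FPKM + 1) of the large-diameter neuron genes (x axis) in the naïve libraries, 11 male (blue) and 11 female (orange). Kcna1 and Kcnc4 are lowest in the 6 libraries with a list mean of at most 2.42, of which 5 are male. Kcna2 overlaps there, with males 5 and 9 at 5.25 and 4.82 FPKM, above female 9 of the other libraries at 4.64 FPKM. Kcnb2 shows no such relation (rho = -0.22).

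For the 4 most abundant naïve members, the genes most alike in pattern over the 22 libraries were sought among all genes kept. For Kcna1 these were the sodium channel gene Scn1a (rho = 0.93), the protocadherin gene Pcdh7 (0.92) and the phospholipid flippase gene Atp11a (0.90). Scn1a is itself one of the large-diameter genes, and Kcna2 stood in place 6. For Kcnab1 they were Syt6 (0.80), Lhfpl3 (0.79) and Ano10 (0.77), and no other member had a rho above 0.41 with it. For Kcns3 they were Dus1l (0.79), Dnaja3 (0.78) and Afap1l1 (0.78), and for Kcnb2 they were Scai (0.80), Ccp110 (0.75) and Xrn1 (0.74). These are descriptions of 22 libraries that share their preparation.

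The SNL and naïve experiments differ in injury, sort, strain, age range, ganglia taken and table, so the effects of these cannot be told apart. According to the paper, the magnetic sort isolates only small-diameter nociceptive neurons, whereas the naïve sort collected GFP-positive cells. Levels are set side by side without a test. Each member's percentile rank within a library, among the 13157 genes kept in either experiment, is given with its FPKM. Mean FPKM was higher in SNL libraries for 5 of 9 members and lower for 4, beside 52.4% of the 13157 genes that were higher. The members were thus divided much as all genes were. The log2 difference of the mean levels had a median of 0.17 over the members and 0.03 over all 13157 genes.

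Kcna1 stood lower, at 5.22 FPKM in SNL libraries against 12.8 FPKM in naïve libraries, with ranks of 39.4 to 51.3 (median 46.3) in SNL libraries and 22.8 to 78.9 (median 65.0) in naïve libraries. Of the 22 naïve libraries 17 ranked Kcna1 above every SNL library and 4 below every one. Kcna2 behaved alike, with a median rank of 43.2 in SNL libraries and 49.3 in naïve libraries, and 16 naïve libraries above every SNL library. Kcns3 had median ranks of 59.5 in SNL libraries and 65.4 in naïve libraries, and Kcns1 of 23.9 and 27.6. Beside this, all 10 large-diameter genes had a lower mean in SNL libraries. Nefh averaged 44.1 FPKM in SNL libraries and 124 FPKM in naïve libraries, and Pvalb 1.99 and 45.7 FPKM. Ntrk3 was close in both, at 11.55 FPKM in SNL libraries and 11.96 FPKM in naïve libraries. By percentile rank, 0 of these 10 genes had all SNL libraries below all naïve libraries.

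Kcnd3, Kcnab1, Kcnb2 and Kcna4 stood higher. Kcnd3 was at 9.36 FPKM in SNL libraries and 4.60 FPKM in naïve libraries, with ranks of 53.1 to 61.7 in SNL libraries and 11.4 to 56.9 in naïve libraries. Kcnb2 ranked at 59.9 to 68.6 in SNL libraries and at 37.8 to 61.0 in naïve libraries, and 21 of 22 naïve libraries lay below every SNL library. Kcnab1 ranked at 90.1 to 94.9 in SNL libraries and 61.4 to 94.3 in naïve libraries, with 14 naïve libraries below every SNL library. Kcna4 had median ranks of 49.3 in SNL libraries and 39.1 in naïve libraries. Kcnc4 was close in both, at 48.1 and 46.9. Beside this, all 10 nerve injury genes had a higher mean in SNL libraries. Among them Gal, a neuropeptide gene, averaged 1204 FPKM in SNL libraries and 696 FPKM in naïve libraries. Its range was 373 to 2248 FPKM in SNL libraries and 44.5 to 6493 FPKM in naïve libraries. By percentile rank, 2 of these 10 genes had all SNL libraries above all naïve libraries. Of the 10 small-diameter genes, 7 had a higher mean in SNL libraries.

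No member had all 6 SNL ranks above all 22 naïve ranks, or all below, where 1.02% and 1.82% of the 13157 genes did. Leaving out the 4 libraries near 0 for trunk Hox, the count of members was again 0. Among the other Kv genes Kcnip1, which encodes a calcium-binding partner of A-type channels and was singled out after its values were seen, lay wholly lower, at 11.5 to 23.1 FPKM in SNL libraries and 41.3 to 135 FPKM in naïve libraries.

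**Figure D5:**
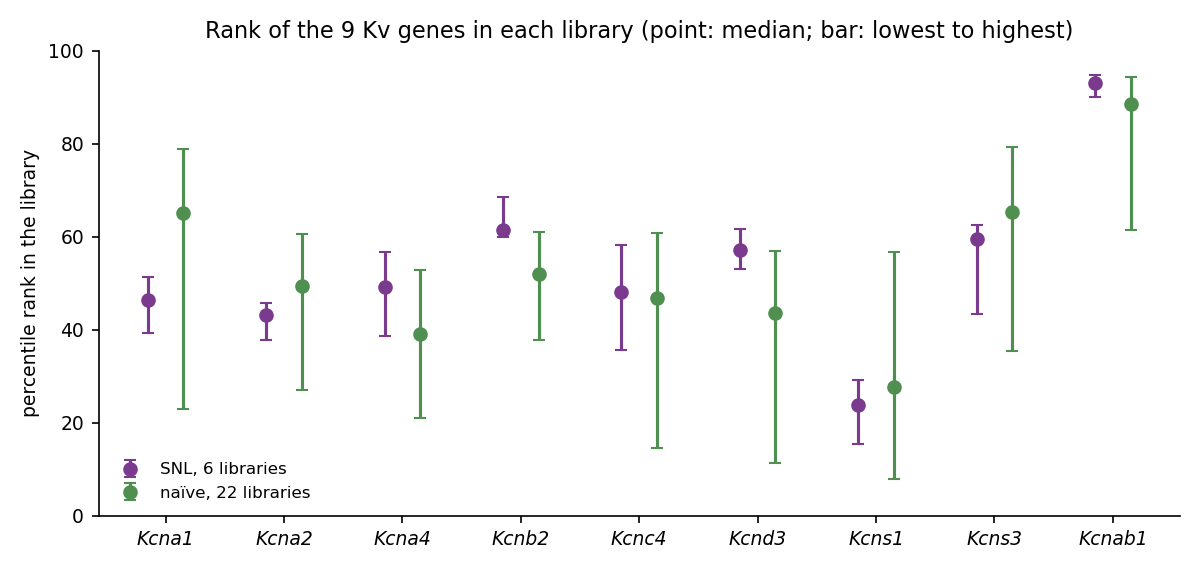
Percentile rank within the library (y axis) of the 9 Kv genes among genes kept in either experiment, as the median (point) and the lowest to highest value (bar), for 6 SNL libraries (purple) and 22 naïve libraries (green). The bars overlap for all 9 genes, with Kcnb2 overlapping least (59.9 to 68.6 in SNL libraries and 37.8 to 61.0 in naïve libraries).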

How the data were processed

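RNA of the 28 libraries was amplified with a SMARTer ultra-low-input kit and sequenced to 75 bases on an Illumina HiSeq. The authors kept uniquely mapped reads (STAR, mm10), merged lanes with SAMtools and deposited FPKM values from Cufflinks, with corrections for fragment bias and reads at several sites. They also counted reads with htseq and tested the counts. Of those tables only the deposited mean normalized count per gene was used, and the authors' fold changes and p-values were not. Read numbers are deposited as counts, mapped shares as percent, and RNA integrity numbers as a score. FPKM depends on the other RNA in a library, so globin or glial RNA lowers it.

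FPKM were tested as log2(FPKM + 1) with limma 3.58.1 in R 4.3.3 (two-sided, intensity trend, Benjamini-Hochberg over all genes with FPKM of at least 1 in at least 2 SNL or 3 naïve libraries of one sex), each experiment in its own table. The code was tested on simulated data. Neighbours in the order of levels were compared by sign-flip tests and relations by permutation (100000 resamples), in Python 3.11.15. Named genes were the members, genes of the Kv and juxtaparanode lists that passed a sex comparison or were among the 3 highest, the 2 highest of marker lists, and the 3 most alike for 4 members. An item that this rule names and a sequence are not reported here. Members and lists were chosen with earlier results of these data known. Alternatives were other pseudocounts, filters, scalings, weights, covariates, a replicate block and leaving out each library. Nothing states that libraries of one group came from separate days, and which library was in which batch is not known here, so p-values measure the spread between pooled libraries, whose number limits the precision.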

Additional observations from a re-analysis of the deposited data

How the results depend on the processing

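No alternative gave a member with an adjusted p under 0.05, over 36 settings in naïve libraries and 16 in SNL libraries, and the smallest adjusted p of any member was 0.399 and 0.379. Of 321 member values in naïve libraries and 142 in SNL libraries, 14 and 12 changed sign, all small and none past the threshold, and the cause was not tested. In naïve libraries the log2 difference of Kcns1 was -0.0576 and -0.13 with pseudocounts of 0.1 and 0.01. With array quality weights it was -0.0769 for Kcns1, 0.0196 for Kcna2, 0.0112 for Kcna4 and 0.10 for Kcnb2. Kcna2 was at 0.0092 with RNA integrity (without male 8, whose value is missing) and at 0.10 with the large-diameter level as a covariate. Without the 6 libraries lowest in large-diameter genes, chosen after seeing the data and also the lowest in Kcna1, Kcna2 was at 0.17, Kcna4 at 0.0002 and Kcnc4 at 0.18. In SNL libraries Kcna2 was at 0.13 and Kcns1 at 0.0092 with quantile normalization, Kcna2 at 0.0674 with median-of-ratios scaling, and Kcnb2 at -0.0049 with weights and -0.0679 with RNA integrity as a covariate. Leaving out each library in turn, the difference of naïve Kcns1 ran from -0.0512 to 0.23, and in SNL libraries those of Kcna2 from -0.0882 to 0.15, Kcns1 from -0.29 to 0.19, Kcnb2 from -0.11 to 0.24 and Kcnc4 from -0.0659 to 0.48.

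Deviations of same-numbered male and female libraries correlated weakly and in both directions (r from -0.16 to 0.28 naïve and -0.21 to 0.26 SNL). The highest naïve value was that of replicate 2, whose male and female libraries were both near 0 for trunk Hox. In replicates 10 and 11 (r = -0.07 and -0.16) male 10 and female 11 were near 0, whereas female 10 and male 11 were at 113 and 171 FPKM. A replicate block called 0 members in either experiment, with 5 genes called in naïve and 0 in SNL libraries, against 7 and 5 without it. Nothing states that same-numbered libraries share a batch, so this block cannot show whether a batch matters. The SNL count over all genes ranged from 0 to 13 over the alternatives, the 13 being without male 2 or without female 1. Ordering naïve members by median placed Kcna1 above Kcns3, and 2 neighbouring pairs then differed in place of 1. Over the 16 libraries with more large-diameter RNA, 1 of the 7 relations counted by rho passed, that of Kcna1 with Kcna2. With 3 libraries a group the SNL interval of a member reached as low as -1.53 on the log2 scale.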
